A study of Sus scrofa with 9 samples.

Results

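The machinery that moves chloride, bicarbonate and fluid across epithelium was followed in pig esophagus through 8 genes: CFTR, ANO1, SLC12A2, SLC4A4, ATP1B1, KCNN4, SLC9A2 and AQP5. They were measured by the 11 probe sets of an Affymetrix porcine gene array whose only annotated symbol is one of these 8, of 13157 probe sets (12217 genes) with a single symbol and 27558 in all. AQP5, KCNN4 and SLC9A2 had 2 probe sets each, called 1 (the brighter) and 2 here, and the other genes had 1.

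Total RNA was hybridised on 9 arrays, 1 sample each. Esophageal submucosal glands (ESMG), which lie under the esophageal lining, came from control pigs 37, 39 and 40, and the squamous tissue above them came from the same 3 pigs. The last 3 arrays held cultured spheroids derived from ESMG, numbered pig 1, 2 and 3; the labels do not say how these relate to pigs 37, 39 and 40, nor the strain, sex and age of any animal. Spheroids grew in Matrigel of reduced growth factor content, in Advanced DMEM/F12 medium supplemented with B27, N2, human epidermal growth factor (50 ng/ml) and HEPES (10 mM), whereas the tissues were not cultured, so origin and culture cannot be told apart in comparisons with spheroids. Spheroid RNA was also isolated with a different kit than tissue RNA.

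A gland cell secretes fluid by moving chloride. The sodium pump keeps sodium low inside the cell, the basolateral cotransporter uses that gradient to load chloride, and potassium channels hold the cell negative so that chloride and bicarbonate leave through apical channels; sodium and water follow. In the esophagus, the bicarbonate and mucus of the submucosal glands are known to help buffer refluxed acid.

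Levels are on the log2 scale, where 1 unit is a factor of 2. A level near the lower quartile of its array (5.36 to 5.65) is close to the floor. A probe set is described as called where the fold was at least 2 and limma's adjusted p was under 0.05. Levels of different probe sets are not set against each other. The members and the gene lists were chosen with earlier results of these data known. Their counts beside the share over all probe sets are therefore a description and not a test. The precision is limited by the number of arrays, 3 per group.

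Gland markers followed the labels of the tissues, and squamous markers differed less between them. Between ESMG and squamous tissue 7 of 8 mucous, 6 of 8 serous and 7 of 9 simple and ductal epithelial markers were called higher, and 0 of 6 squamous differentiation and 0 of 6 squamous basal markers were called in either direction. Cornulin (CRNN), a protein of upper squamous layers, was also high in ESMG, at 12.12 to 12.54 against 12.66 to 12.72 in squamous tissue. The summed level of the 6 squamous differentiation markers was 14.45 to 14.91 in ESMG and 15.03 to 15.22 in squamous tissue, without overlap. The median log2 difference, ESMG minus squamous tissue, was -0.48 for the differentiation markers and -0.5 for the basal markers. In spheroids the simple and ductal list was mixed, with 5 of 9 called higher and 2 lower than in squamous tissue, and 1 higher and 2 lower than in ESMG. Its keratin KRT8 lay at 10.76 to 11.60 in ESMG, 7.84 to 8.65 in squamous tissue and 11.21 to 11.74 in spheroids, whereas KIT (6.41 to 6.70) and ELF5 (7.40 to 7.73) in spheroids were below squamous tissue (8.16 to 8.61 and 10.40 to 10.73). The summed level of 6 squamous basal markers was 12.88 to 13.58 in ESMG, 13.64 to 13.84 in squamous tissue and 14.43 to 14.61 in spheroids, with 4 called higher and 1 lower in spheroids than in squamous tissue. The summed level of 9 fibroblast markers was 15.02 to 15.34 in ESMG, 15.02 to 15.28 in squamous tissue and 10.65 to 11.79 in spheroids. In such bulk samples, fewer cells of a type and less RNA per cell cannot be told apart.

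One gland array stood apart from the other two. The ESMG array of pig 40 was the lowest of the 3 gland arrays in 10 of 11 member probe sets, against 32.1% of all probe sets, and the highest in 0. On it the summed levels of mucous (14.33), serous (14.20) and simple epithelial (13.58) markers were below those of the other 2 gland arrays (15.14 to 15.24, 14.68 to 14.74 and 13.93 to 14.00), and that of 6 squamous differentiation markers was above (14.91 against 14.45 to 14.49). The part of these markers in the levels of the members was not tested. Among spheroids, the array of pig 3 was the highest in 8 of 11 member probe sets, against 35.6% of all. Among squamous arrays, that of pig 37 was the highest in 6 of 11 member probe sets, against 23.0% of all, and the lowest in 2. On it the summed serous (12.66) and mucous (11.15) levels were above those of the other 2 squamous arrays (11.11 to 11.26 and 10.01 to 10.04). The simple epithelial level was 12.75 against 12.62 to 12.71. The part of these markers was not tested either.

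The comparison of ESMG with the squamous tissue above it asks which parts of the secretion machinery set these samples apart. Both were mixed, with summed smooth muscle and myoepithelial markers at 14.25 to 14.82 in ESMG and 14.97 to 15.25 in squamous tissue. Summed plasma cell markers lay at 12.43 to 13.3 in ESMG and 9.51 to 10.69 in squamous tissue, with 2 of 5 called higher in ESMG. Summed leukocyte markers overlapped, at 11.17 to 12.43 and 10.71 to 11.4. The part of these cells in the levels of the members was not tested. In ESMG 6 of 8 genes were called higher than in squamous tissue, all but ANO1 and SLC4A4, by 2.42-fold to 9.54-fold, and 0 were called lower. By probe set, 9 of 11 were called higher and 0 lower, where 3.09% of all probe sets were called, 2.68% higher and 0.403% lower. The median log2 difference was 1.88 over the members and -0.06 over all probe sets. In 10 of 11 probe sets every gland array lay above every squamous array, as in 9.79% of all probe sets; the reverse held for 0 of 11 and for 11.7% of all.

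**Figure D1:**
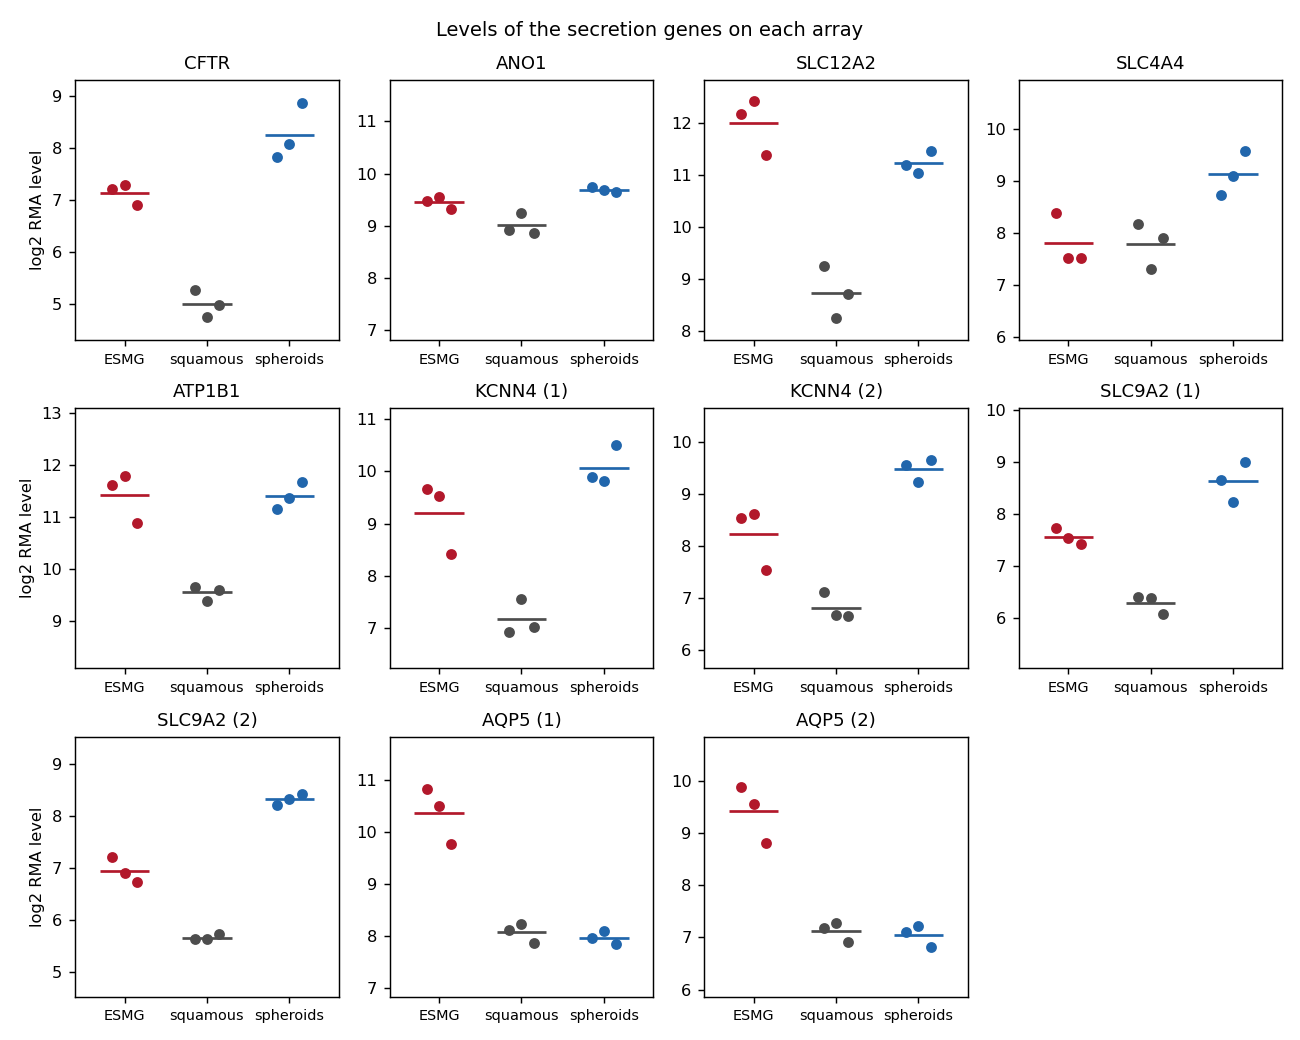
Log2 RMA level (y axis, the same span of 5 units in each panel but a different start) of each member probe set on the 9 arrays, by group; points are arrays in order of pig number, bars are group means, and (1) and (2) mark the brighter and the dimmer probe set of a gene. The gland points lie above the squamous points in every panel but that of SLC4A4, and the spheroid points of AQP5 lie at the squamous level.

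The 2 apical anion channels differed. CFTR, the cyclic AMP-activated channel for chloride and bicarbonate that is mutated in cystic fibrosis, lay at 7.20, 7.29 and 6.90 in the ESMG of pigs 37, 39 and 40 and at 5.27, 4.75 and 4.97 in their squamous tissue. Every gland array was thus above every squamous array, and all 3 squamous values were under the lower quartile of their arrays. The means were 7.13 ± 0.20 and 5.0 ± 0.26 (SD, n = 3 each), a log2 difference of 2.13 (SE 0.25, 4.38-fold, adjusted p = 0.000417), whose size rests on values near the floor. ANO1, the calcium-activated chloride channel, lay at 9.48, 9.55 and 9.32 in ESMG and 8.92, 9.23 and 8.86 in squamous tissue. These groups did not overlap either, but the difference of 0.45 (95% interval 0.14 to 0.76, adjusted p = 0.0972) was not called.

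Among the basolateral loaders, the chloride cotransporter led. SLC12A2 (NKCC1), which brings sodium, potassium and chloride into the cell together, lay at 12.17, 12.42 and 11.39 in ESMG and at 9.25, 8.24 and 8.71 in squamous tissue. It had the largest difference of the 8 genes in this comparison, 3.25 (SE 0.29, 9.54-fold, adjusted p = 7.11e-05). Within pigs 37, 39 and 40 ESMG exceeded squamous tissue by 2.92, 4.17 and 2.67. SLC4A4 (NBCe1), the cotransporter that brings in sodium with bicarbonate, showed no such gap: it lay at 8.38, 7.52 and 7.52 in ESMG and 8.18, 7.31 and 7.89 in squamous tissue. The groups overlapped, and the difference was 0.01 with a 95% interval of -0.63 to 0.65 (adjusted p = 0.989), which leaves room for a change of up to about that size in either direction. Its within-pig difference was 0.20 in pig 37, 0.21 in pig 39 and -0.37 in pig 40.

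ATP1B1, the beta subunit that carries the sodium pump to the membrane, lay at 11.62, 11.79 and 10.89 in ESMG and 9.67, 9.40 and 9.61 in squamous tissue, a difference of 1.88 (SE 0.23, 3.67-fold, adjusted p = 0.000541). The smallest within-pig difference was in pig 40, at 1.28, against 1.96 and 2.39 in pigs 37 and 39. KCNN4, the calcium-activated potassium channel of intermediate conductance, lay on probe set 1 at 9.67, 9.54 and 8.41 in ESMG and 6.92, 7.55 and 7.01 in squamous tissue. Both of its probe sets were called, at 2.05 (SE 0.32, 4.13-fold, adjusted p = 0.00269) and 1.42 (SE 0.26, 2.67-fold, adjusted p = 0.00792), and on both the gland array of pig 40 was about 1 log2 unit below the other 2.

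SLC9A2 (NHE2), an apical exchanger of sodium for protons, was the smallest of the called differences. Its probe set 1 lay at 7.73, 7.55 and 7.42 in ESMG and 6.41, 6.39 and 6.08 in squamous tissue. The 2 probe sets differed between tissues by 1.28 (SE 0.19, 2.42-fold, adjusted p = 0.00232) and 1.29 (SE 0.15, 2.45-fold, adjusted p = 0.000408). Probe set 2 lay at 5.63, 5.63 and 5.73 in squamous tissue, near the floor, so the size of its difference is uncertain. AQP5, the apical water channel of salivary and airway glands, lay on probe set 1 at 10.82, 10.51 and 9.78 in ESMG and 8.13, 8.23 and 7.86 in squamous tissue. Its probe sets moved together: they differed by 2.30 (SE 0.23, 4.91-fold, adjusted p = 0.000174) and 2.31 (SE 0.24, 4.95-fold, adjusted p = 0.000219), and on every array the brighter exceeded the dimmer by 0.87 to 1.03.

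**Figure D2:**
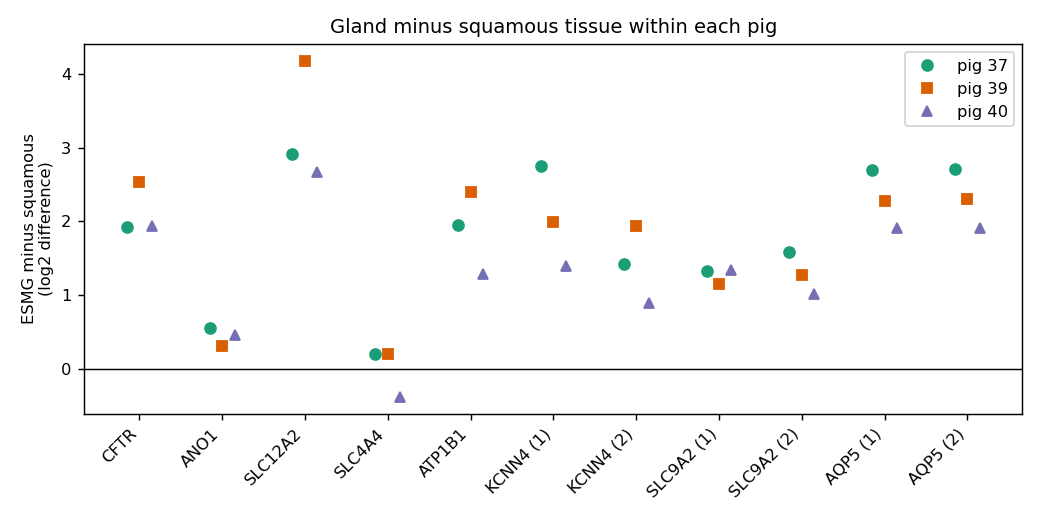
ESMG minus squamous tissue within each pig (y axis, log2 difference), for the 11 member probe sets (x axis); each symbol is 1 pig. Of the members, only SLC4A4 has a pig below 0 (pig 40, at -0.37), and pig 39 has the largest difference in SLC12A2, at 4.17.

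The 9 calls held in each of the alternative fits, including those that left out 1 array at a time and those with pig as a block, apart from the fit with 1 probe set per gene, which holds 8 probe sets and called 6. Without the ESMG array of pig 40 the log2 differences were larger, at 3.56 for SLC12A2, 2.15 for ATP1B1, 2.45 and 1.76 for KCNN4, and 2.59 and 2.61 for AQP5.

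The comparison of spheroids with ESMG asks what the machinery looks like after growth in culture. AQP5 fell to the level of squamous tissue, while 4 genes rose: CFTR, SLC4A4, KCNN4 and SLC9A2, by 2.09-fold to 2.58-fold on their called probe sets. SLC12A2, ATP1B1 and ANO1 were not called. Beside these rises, 4 of 6 squamous basal markers were called higher and 1 lower in spheroids than in ESMG (median log2 difference 2.16). Of 6 cell cycle markers 3 were called higher and 0 lower (median 1.17). Called lower, with 0 higher, were 9 of 9 fibroblast markers (median -4.34) and 7 of 9 smooth muscle and myoepithelial markers (-2.52). So were 5 of 6 endothelial markers (-1.79). The part of all these markers in the levels of the members was not tested. By probe set, 5 of 11 were called higher and 2 lower, where 16.9% of all probe sets were called, 8.12% higher and 8.82% lower. The median log2 difference was 0.87 over the members and 0.09 over all probe sets, and every spheroid array was above every gland array in 7 of 11 probe sets (30.5% of all) and below in 2 (20.8% of all).

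For AQP5, probe set 1 lay at 7.97, 8.10 and 7.85 in the spheroids of pigs 1, 2 and 3, against 9.78 to 10.82 in ESMG. No spheroid array came near the lowest gland array. From a mean of 10.37 ± 0.54 to one of 7.97 ± 0.13 (SD, n = 3 each), probe set 1 fell by 2.40 on the log2 scale (SE 0.23, 5.26-fold lower, adjusted p = 1.02e-05), and probe set 2 fell by 2.39 (SE 0.24, 5.22-fold lower, adjusted p = 1.46e-05). Against squamous tissue the differences were -0.10 (95% interval -0.60 to 0.41) and -0.08 (95% interval -0.60 to 0.45), and the arrays overlapped. The sign of both is not settled, since it turned with array medians set equal (0.031 and 0.051) and, on probe set 2, with quantile normalization (0.027) and without the spheroids of pig 3 (0.036). Serous and mucous markers followed AQP5 in part. In spheroids 4 of 8 serous and 5 of 8 mucous markers were called lower than in ESMG and 0 higher, and the summed serous level was 12.90 to 13.22 against 14.20 to 14.74. Unlike AQP5, the summed levels stayed above squamous tissue, at 11.11 to 12.66 there for serous markers. For mucous markers they were 12.51 to 12.87 in spheroids and 10.01 to 11.15 in squamous tissue. Against squamous tissue 4 serous markers were called higher and 2 lower, and 2 mucous markers higher and 1 lower. The sums weigh bright markers most, such as the serous WFDC2 (12.1 to 12.52 in spheroids, 7.08 to 9.37 in squamous tissue). Other markers did not stay above. The mucous MUC19 lay at 6.17 to 6.36 in spheroids and 6.06 to 7.45 in squamous tissue, and the serous LPO at 6.16 to 6.61 and 10.2 to 10.79. The part of serous and mucous markers in the fall of AQP5 was not tested.

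CFTR went the other way. It lay at 7.82, 8.07 and 8.87 in spheroids, above each gland array (6.90 to 7.29), a rise of 1.12 (SE 0.25, 2.17-fold, adjusted p = 0.00335). The array of pig 3 carried part of this: without it the difference was 0.81, under the fold minimum, and with array weights it was 0.70. ANO1 was at 9.75, 9.68 and 9.64 in spheroids, just above the highest gland array, with a difference of 0.24 (95% interval -0.07 to 0.55, adjusted p = 0.196).

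SLC4A4, the bicarbonate loader that did not separate the tissues, rose in spheroids. It lay at 8.74, 9.08 and 9.57, above the gland range of 7.52 to 8.38, a difference of 1.33 (SE 0.29, 2.51-fold, adjusted p = 0.00325). With array weights the difference was 0.89, under the fold minimum. SLC12A2 lay at 11.18, 11.04 and 11.46, which overlapped the gland array of pig 40 (11.39) but not the other 2. Its difference was -0.76 (95% interval -1.39 to -0.14, adjusted p = 0.0514) and was not called; without the gland array of pig 40 it was -1.06 and called (adjusted p = 0.00633). ATP1B1 lay at 11.15, 11.38 and 11.68, within the gland range of 10.89 to 11.79, with a difference of -0.03 (95% interval -0.52 to 0.46, adjusted p = 0.929). The sign of the ATP1B1 difference turned under several settings, among them equal array medians (0.081).

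KCNN4 rose on 1 of its 2 probe sets. Probe set 2 lay at 9.56, 9.23 and 9.65 in spheroids and 8.53, 8.62 and 7.55 in ESMG, a rise of 1.25 (SE 0.26, 2.37-fold, adjusted p = 0.00239). Probe set 1 lay at 9.89, 9.81 and 10.51, with a difference of 0.87 (SE 0.32, adjusted p = 0.0452) that was under the fold minimum. On both, all spheroid arrays were above all gland arrays, yet the calls turned on single gland arrays. Without that of pig 40 the differences were 0.47 on probe set 1 and 0.90 on probe set 2, neither called; without that of pig 37 or 39, probe set 1 was called, at 1.10 and 1.03.

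SLC9A2 rose on both probe sets, by 1.06 (SE 0.19, 2.09-fold, adjusted p = 0.000893) and 1.37 (SE 0.15, 2.58-fold, adjusted p = 2.33e-05). Probe set 2 lay at 8.22, 8.33 and 8.43 in spheroids and 7.22, 6.91 and 6.74 in ESMG, and it stayed called in each alternative fit that held it. Probe set 1 lay at 8.66, 8.24 and 8.99 in spheroids and fell under the fold minimum after quantile normalization (0.99), after cyclic loess (0.94), without the gland array of pig 40 (0.99) and without the spheroid array of pig 3 (0.88).

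**Figure D3:**
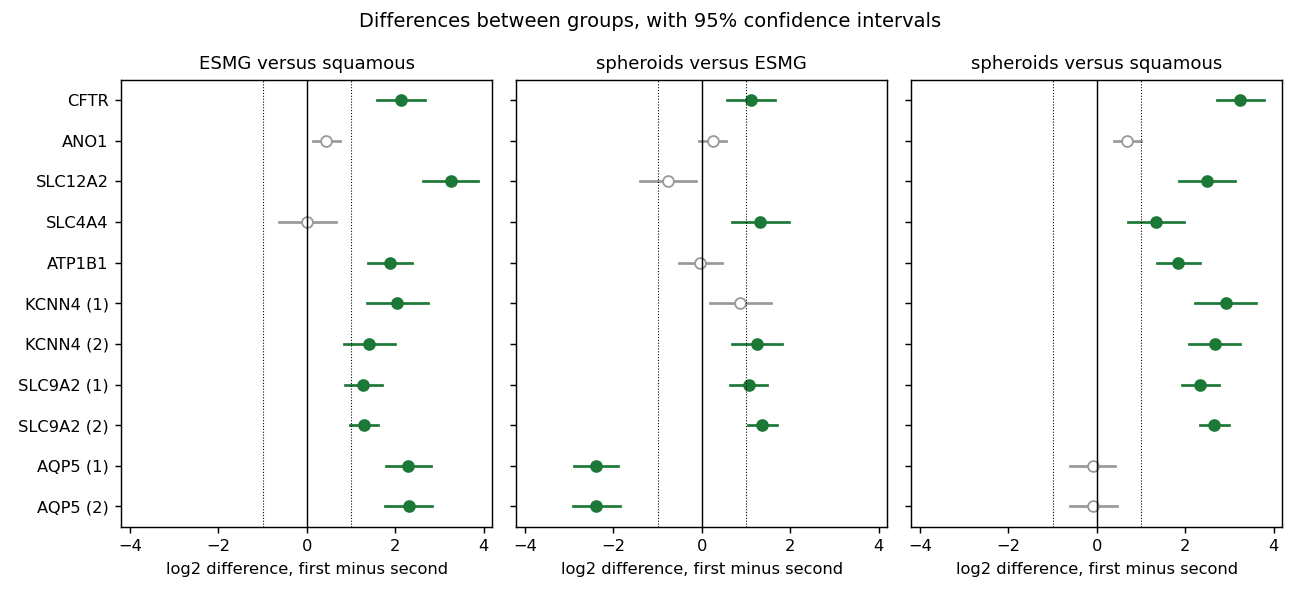
Log2 difference (x axis) of each member probe set (y axis) in the 3 comparisons, with its 95% interval from limma; filled green points were called, open grey points were not, and dotted lines mark 2-fold. AQP5 is at -2.40 and -2.39 in spheroids versus ESMG, and near 0 in spheroids versus squamous tissue, where 8 of the 11 points are called higher.

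Spheroids and squamous tissue were compared to place the cultures beside the second tissue. Spheroids exceeded squamous tissue in 6 of 8 genes, all but AQP5 and ANO1. By probe set, 8 of 11 were called higher and 0 lower, where 16.7% of all probe sets were called, 8.70% higher and 7.99% lower. In 9 of 11 every spheroid array was above every squamous array (28.8% of all) and in 0 below (21.8% of all), with a median log2 difference of 2.34 over the members and 0.03 over all. This comparison shares the spheroid arrays with the one before and the squamous arrays with the first, so the 3 sets of values are not independent. CFTR had the largest difference, 3.25 (SE 0.25, 9.51-fold, adjusted p = 1.56e-06), again with squamous values near the floor. KCNN4 differed by 2.92 (7.54-fold) and 2.67 (6.34-fold), and SLC9A2 by 2.34 (5.06-fold) and 2.66 (6.33-fold), with adjusted p of at most 2.24e-05. The squamous values of SLC9A2 probe set 2 were near the floor here too. SLC12A2 differed by 2.49 (SE 0.29, 5.62-fold, adjusted p = 3.59e-05) and ATP1B1 by 1.85 (SE 0.23, 3.60-fold, adjusted p = 5.59e-05). SLC4A4 was 1.34 higher (SE 0.29, adjusted p = 0.00316), or 0.76 and not called with array weights. ANO1 differed by 0.69 (95% interval 0.38 to 1.00, adjusted p = 0.00206), which passed the p threshold but not the fold minimum.

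Ordered by level, CFTR, KCNN4 and SLC9A2 ran from squamous tissue through ESMG to spheroids, with no overlap between neighbouring groups. SLC12A2 and ATP1B1 were lowest in squamous tissue, and their ESMG and spheroid arrays overlapped. AQP5 was highest in ESMG, with the other 2 groups overlapping. SLC4A4 was highest in spheroids, with the 2 tissues overlapping. ANO1 followed the order of CFTR, at means of 9.0 ± 0.20, 9.45 ± 0.11 and 9.69 ± 0.05 (SD, n = 3 each), with steps under the fold minimum.

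For each gene, the genes with the most similar profile were sought by Pearson correlation over the 9 arrays. These arrays fall into 3 groups, so the correlations mainly restate the order of the group means. CFTR was most like KRT19, a keratin of ducts and simple epithelium (r = 0.987), ID2 (0.986) and the kinase FRK (0.983). KRT19 (0.984) also followed SLC9A2, with the transmembrane protease TMPRSS2 (0.986) and TMEM139 (0.986), and TMPRSS2 (0.982) followed KCNN4, with CCDC160 (0.986) and KIAA1147 (0.982). MYO5C, an unconventional myosin of exocrine secretory granules, was the nearest to ATP1B1 (0.992; then FNDC3B, 0.991, and GOLM1, 0.990) and the third nearest to SLC12A2 (0.979; after PLEKHS1, 0.990, and CREB3, 0.980). AQP5 had other neighbours: SLC5A5, the sodium-iodide symporter (0.992), the lectin LMAN1L (0.992) and the sialyltransferase ST3GAL5 (0.991). ANO1 was nearest to STARD10 (0.983), PTRHD1 (0.981) and TMEM214 (0.973), and SLC4A4 to EZR, which encodes the membrane-cytoskeleton linker ezrin (0.975), SNAP29 (0.972) and RFK (0.965).

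Beyond these 8, 114 genes of ion and fluid transport in 13 lists by role were measured, 1 probe set per gene. Most were not called: between ESMG and squamous tissue 11 were higher and 2 lower, where 3.06% of all genes were called, 2.65% higher and 0.409% lower. Between spheroids and ESMG 15 were higher and 10 lower (background 7.99% and 8.91%), and between spheroids and squamous tissue 17 were higher and 12 lower (8.61% and 8.05%). The medians over the 114 were -0.06, 0.05 and 0.06.

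**Figure D4:**
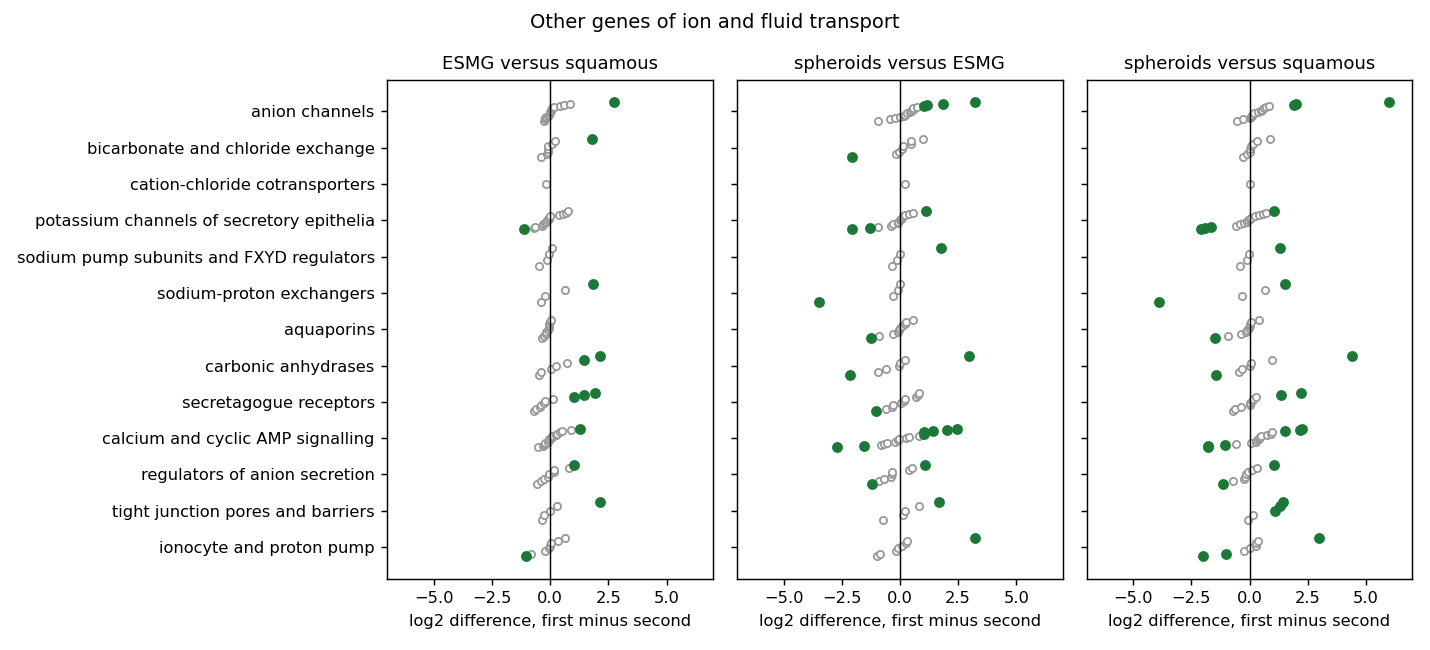
Log2 difference (x axis) of the 114 other transport genes, by list (y axis), in the 3 comparisons; filled green points were called, open grey points were not, and the spread of points within a row has no meaning. Most points lie near 0, and GABRP is the rightmost, at 5.98 in spheroids versus squamous tissue.

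Among 16 other genes listed under anion channels, which holds whole gene families and not only proven channels, 1 was higher in ESMG than in squamous tissue. This was GABRP, a chloride-conducting GABA receptor subunit. It differed by 2.74 (SE 0.43, adjusted p = 0.00305), or 3.38 without the squamous array of pig 37, 2.21 without that of pig 39 and 1.93 with array weights, and rose further in spheroids by 3.23 (SE 0.43, adjusted p = 0.000114). It was 5.98 above squamous tissue (adjusted p = 1.12e-06), or 6.61 without the squamous array of pig 37, 5.44 without that of pig 39 and 5.0 with array weights. GABRP had means of 9.12 ± 0.07 in ESMG, 6.38 ± 1.19 in squamous tissue and 12.35 ± 0.29 in spheroids (SD, n = 3 each). The wide squamous spread leaves the size of the differences against that tissue uncertain. Its 2 probe sets held the same values. In spheroids versus ESMG 4 of the 16 rose, GABRP, LRRC8A, the subunit that volume-regulated anion channels need (1.86, SE 0.14, adjusted p = 1.67e-06), and its partners LRRC8B (1.16) and LRRC8C (1.04). In spheroids versus squamous tissue 3 were higher, GABRP, LRRC8A (1.91) and LRRC8B (2.01). Of 8 bicarbonate and chloride exchangers, SLC26A7 was the 1 called: 1.78 higher in ESMG than in squamous tissue (SE 0.28, adjusted p = 0.00276) and lower in spheroids than in ESMG (-2.06, adjusted p = 0.000114), with means of 6.45 in ESMG, 4.68 in squamous tissue and 4.40 in spheroids, the last 2 near the floor. The 1 other cation-chloride cotransporter measured, SLC12A5, was not called (-0.18, 0.21 and 0.03 in the 3 comparisons).

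Of 4 other sodium pump subunits and regulators, ATP1B3, another beta subunit, rose in spheroids by 1.79 against ESMG (SE 0.15, adjusted p = 4.84e-06) and was 1.30 above squamous tissue, whereas it differed by -0.48 (adjusted p = 0.102) between the tissues, where ATP1B1 was higher in ESMG. Among 4 other sodium-proton exchangers, SLC9A7, of the trans-Golgi network, was higher in ESMG (1.84, SE 0.17, adjusted p = 0.000101) and in spheroids (1.53) than in squamous tissue. SLC9A9, of endosomes, was lower in spheroids than in ESMG (-3.49) and squamous tissue (-3.88, SE 0.20 each, adjusted p = 2.21e-07 and 9.82e-08), where its mean of 4.97 was near the floor, so that the size of both differences is uncertain. Of 10 other aquaporins none was called between the tissues; AQP3, a basolateral channel for water and glycerol, was lower in spheroids than in ESMG (-1.23, SE 0.22, adjusted p = 0.000990), or not called without the spheroid array of pig 2 (-0.92) or with array weights (-0.98), and lower than in squamous tissue (-1.48).

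Of 15 other potassium channel genes none was higher in ESMG than in squamous tissue, and KCNMB1, a beta subunit of the large-conductance channel best known from smooth muscle, was lower (-1.14, SE 0.26, adjusted p = 0.0231). That call was lost when 1 squamous array, or the gland array of pig 37 or 39, was left out (adjusted p of 0.065 to 0.089, differences from -1.16 to -0.86), and in a fit of the 2 tissues alone (adjusted p = 0.052). In spheroids KCNMA1, the pore of the same channel, was lower than in ESMG (-2.04, SE 0.23, adjusted p = 3.45e-05), as was KCNE1, a KCNQ1 partner (-1.29), and KCNMB1 (-2.07), KCNE1 (-1.93) and KCNMA1 (-1.65) were lower than in squamous tissue. KCNK5, a pore-forming subunit, was the 1 that was higher in spheroids, than in ESMG (1.13) and squamous tissue (1.06). Beside these, the summed level of 9 smooth muscle and myoepithelial markers was 14.25 to 14.82 in ESMG, 14.97 to 15.25 in squamous tissue and 11.57 to 11.81 in spheroids; their part was not tested.

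Carbonic anhydrases split. Of 7 measured, CA6, the secreted salivary form, was higher in ESMG than in squamous tissue (2.14, SE 0.32, adjusted p = 0.00239) and lower in spheroids than in ESMG (-2.13, adjusted p = 0.000281), with means of 5.30 in squamous tissue and 5.31 in spheroids that were near the floor. CA8, a relative without enzyme activity, was higher in ESMG than in squamous tissue (1.47, adjusted p = 0.00693) and higher still in spheroids (2.95 above ESMG and 4.42 above squamous tissue), where the squamous mean of 5.30 was again near the floor. The size of these differences against the floor is uncertain. The membrane-bound CA12 was lower in spheroids than in squamous tissue (-1.42, adjusted p = 0.000557).

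Receptors and signalling genes that drive secretion were called in part. Of 10 secretagogue receptors 3 were higher in ESMG than in squamous tissue, led by the ATP-gated channel P2RX4 (1.93, SE 0.21, adjusted p = 0.000278) and the protease-activated receptor F2RL1 (1.47, adjusted p = 0.00575). Both were also higher in spheroids than in squamous tissue (1.35 and 2.23). The third was VIPR1, a receptor for vasoactive intestinal peptide (1.03, adjusted p = 0.0113), which was lower in spheroids than in ESMG (-1.03, SE 0.20, adjusted p = 0.00157), but not called without the gland array of pig 39 (-0.87) or the spheroid array of pig 2 (-0.91), with quantile normalization (-0.91), with array medians set equal (-0.92) or with array weights (-0.86). Of 17 calcium and cyclic AMP signalling genes 1 was higher in ESMG than in squamous tissue, the calcium sensor STIM2 (1.29, adjusted p = 0.0108). In spheroids versus ESMG 5 rose and 2 fell, with the calcium release channel ITPR3 at 2.45 (SE 0.16, adjusted p = 7.18e-07) and the phospholipase PLCB1 at -2.69 (SE 0.19, adjusted p = 1.19e-06); ITPR3 (2.18) and the cation channel TRPV4 (2.26) led the 3 that were higher than in squamous tissue, where 3 were lower.

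Among 9 regulators of anion secretion, STK39 (SPAK), a kinase that activates SLC12A2, was higher in ESMG than in squamous tissue (1.02, SE 0.21, adjusted p = 0.0149) and lower in spheroids than in ESMG (-1.18, adjusted p = 0.000859). The tissue call was lost without the squamous array of pig 40 (0.96) and without the gland array of pig 37 (0.90) or 39 (0.85), and 1 of its 2 probe sets was called in the second comparison. Ezrin (EZR) was higher in spheroids than in ESMG (1.08, adjusted p = 0.000589) and squamous tissue (1.04, adjusted p = 0.000762), close to the fold minimum, under which it lay without the spheroid array of pig 3 (0.98 and 0.94) and, against squamous tissue, without the squamous array of pig 39 (0.88). It also lay under the minimum with cyclic loess (0.94 and 0.90), with array weights (0.97 and 0.85) and, against squamous tissue, with quantile normalization (0.97). AHCYL2, a relative of the inositol trisphosphate receptor-binding protein IRBIT, was lower in spheroids than in squamous tissue (-1.16), or -0.90 and not called without the squamous array of pig 40.

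Of 5 tight junction genes, the claudin CLDN8 was higher in ESMG (2.14, SE 0.30, adjusted p = 0.00133) and in spheroids (1.43) than in squamous tissue, and CLDN4 was higher in spheroids than in ESMG (1.67, adjusted p = 0.000859) and squamous tissue (1.30, but not called with array weights, at 0.67, or without the squamous array of pig 40, at 0.98). CLDN7 was higher in spheroids than in squamous tissue (1.08). Of 8 ionocyte and proton pump genes, the pump subunit ATP6V1C2 was higher in spheroids than in ESMG (3.21) and squamous tissue (2.99), both of which had means near the floor (4.80 and 5.02), so that the size is uncertain. ATP6V1B1, another subunit, was lower in ESMG than in squamous tissue (-1.03, adjusted p = 0.0238), a call lost when 1 of 4 arrays was left out, the squamous ones of pigs 37 and 40 and the gland ones of pigs 37 and 39 (adjusted p of 0.0765 to 0.101, differences of -1.02 to -0.83), with cyclic loess (-0.97) and in a fit of the 2 tissues alone (adjusted p = 0.0571), and lower in spheroids (-2.02). The ionocyte transcription factors FOXI1 and ASCL3 were not called in any comparison; FOXI1 had means of 6.85 ± 0.13 in ESMG, 6.50 ± 0.11 in squamous tissue and 6.77 ± 0.29 in spheroids (SD, n = 3 each).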

How the data were processed

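Per the labels, the authors deposited log2 levels made with Expression Console by RMA over the full list of gene-level probe sets. The submitters' processing notes name Transcriptome Analysis Console 3.0 as well, without its use. RMA brings the distributions of arrays close to each other, which takes out differences in total RNA and shrinks those between dim probe sets. The deposited distributions were not fully equal. Array medians were 6.84 to 6.90 in spheroids and 6.96 to 7.04 in the tissues. Lower quartiles were 5.36 to 5.44 in spheroids and 5.51 to 5.65 in the tissues. The labels name no genome build, so no coordinates are printed.

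Genes were named from the platform annotation, with symbols updated through the gene number in the RefSeq table of Sscrofa11.1; the gene numbers of 7 of the 8 members matched, and ANO1 kept the annotation's symbol. No probe set with several symbols held a member. One mean per group was fitted over 9 arrays and the 13157 probe sets with 1 symbol, with limma 3.58.1 (statmod 1.5.0) in R 4.3.3, leaving 6 residual degrees of freedom. Tests were two-sided, with Benjamini-Hochberg adjustment over all of these probe sets, and the method was tested on simulated data. The median standard error of a log2 difference was 0.169. Tables and plots used Python 3.11.15, pandas 2.3.3, numpy 2.4.6 and matplotlib 3.10.9.

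For the 13 transport and 14 marker lists, the probe set with the highest mean stood for a gene. Summed marker levels are log2 of the sum of the unlogged levels. The members and lists were chosen with earlier results of these data known. Named genes are all members, per list and comparison the up to 2 called genes with the largest absolute difference, and per member the 3 genes with the highest Pearson r; SLC12A5, FOXI1, ASCL3, LRRC8C, KCNK5, CLDN7 and the marker genes were added after their values were seen. ESMG and squamous arrays of a number come from the same pig, as the titles state. Deviations from the group means correlated by 0.42, -0.15 and -0.17 within pigs 37, 39 and 40. Across pigs, ESMG of pig 40 correlated by 0.37 with squamous tissue of pig 39, and ESMG of pig 39 by 0.24 with that of pig 40. The pairing of pigs 39 and 40 thus rests on the titles. Pig was used as a block in alternative fits only. Alternatives changed the probe sets in the fit, the normalization, the filter on dim probe sets, the arrays, the weights, the prior and the call rule.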

Additional observations from a re-analysis of the deposited data

How the results depend on the processing

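Single differences of the members and of the transport genes named by the stated rule numbered 82. Of these, 62 kept their direction and their side of the threshold under every alternative other than that with no fold minimum, which was not counted here. The count of called members stayed within 1.5 times under all alternatives, with 1 exception. In spheroids versus ESMG, 4 instead of 7 members were called with 1 probe set per gene, a fit that holds 8 member probe sets instead of 11. Leaving out 1 array at a time gave 9 in each case for ESMG versus squamous tissue, 5 to 8 for spheroids versus ESMG and 8 in each case for spheroids versus squamous tissue. Signs turned only for differences that were not called. SLC4A4 in ESMG versus squamous tissue was -0.12 with array weights and -0.27 to 0.20 with 1 array left out, ATP1B1 in spheroids versus ESMG was 0.081 with array medians set equal and -0.30 to 0.15 with 1 array left out, and AQP5 in spheroids versus squamous tissue was 0.031 and 0.051 with medians set equal, 0.027 on probe set 2 after quantile normalization and -0.18 to 0.036 on it with 1 array left out. The cause was not tested.

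With pig as a replicate block, as a fixed term over the 6 tissue arrays or as a random block over all 9, the calls in ESMG versus squamous tissue were 9 of 11 member probe sets in both, and the log2 difference of SLC12A2 was 3.25 (adjusted p = 0.000264 and 0.000154). No other difference of a member, or of a transport gene named by the stated rule, changed its call with the block, whereas the count over all probe sets was 430 with the fixed and 366 with the random block, against 406 without. Setting array medians equal moved the median of all probe sets by 0.11 in spheroids versus ESMG and by 0.13 in spheroids versus squamous tissue, and the split of calls from 1068 higher and 1161 lower to 1352 and 994, and from 1145 and 1051 to 1479 and 886. Over all probe sets, 406 were called in ESMG versus squamous tissue, 614 without the ESMG array of pig 40, and 781 with no fold minimum, which also raised the other 2 counts from 2229 to 5449 and from 2196 to 5384. Few arrays and values near the floor, as for CFTR in squamous tissue, limit these comparisons.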
